A study of Mus musculus with 8 samples.

Results

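The lung lineage transcription factors are 10 genes whose proteins pattern the mesenchyme of the lung (Tbx2, Tbx3, Tbx4, Tbx5, Foxf1 and Tcf21) or its epithelium (Nkx2-1, Foxa1, Foxa2 and Gata6). They are 10 of the 55416 genes in the count files, and all 10 passed the filter on low counts that left 18560 tested genes. They were selected on their own expression in these 8 mice, by CPM (each gene's counts scaled to the size of its library) in control, LPS and LPS plus YW3-56 lungs. Their values, and the calls counted among them, are therefore a description that supports nothing.

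Lung RNA was sequenced from 8 C57BL/6 mice, described in the methods as female C57BL/6J animals of 6 to 8 weeks. The 3 control mice (numbers 1, 2 and 4) were given DMSO into the tail vein and then saline into the abdomen. The 3 LPS mice (numbers 1, 6 and 7) received lipopolysaccharide, a component of the bacterial outer membrane, at 35 mg/kg into the abdomen, and no DMSO is stated for them. The 2 dual-treated mice (numbers 2 and 5) received YW3-56, an inhibitor of peptidylarginine deiminases, at 10 mg/kg in DMSO, then LPS at the same dose 0.5 h later. Lungs were taken from a single side at 24 h after LPS, and no mouse had YW3-56 without LPS. The methods state 3 sequenced mice in each group, whereas the labels, and the caption of the study's RNA sequencing figure, give 2 for the dual treatment. Control libraries held 19061949, 19796242 and 20527836 counts, LPS libraries 20818501, 19379911 and 19279724, and dual-treated libraries 19875939 and 20908608. The TMM scaling factors of edgeR were 1.07, 1.08 and 1.06 in control, 0.810, 0.894 and 0.930 in LPS, and 1.11 and 1.09 in dual-treated libraries. Levels below are TMM-normalized CPM, and the LPS and dual-treated groups are compared with the same 3 control mice.

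LPS mice 6 and 7 stood apart from the other libraries. They carried RNA of squamous epithelium, with a summed level over 9 markers of 714 CPM in LPS mouse 6 and 2005 CPM in LPS mouse 7, led by Krt13 at 286 and 887 CPM. The sum was 1.31 CPM in LPS mouse 1, 8.27, 13.0 and 14.0 CPM in control and 11.2 and 26.5 CPM in dual-treated mice. Skeletal muscle markers, led by Acta1, summed to 15.9, 436 and 1163 CPM in the LPS mice, 8.22, 18.2 and 12.7 CPM in control and 4.49 and 5.80 CPM in dual-treated mice. Of the tested squamous markers 7 of 9 rose with LPS and 1 fell, and 7 of 7 skeletal muscle markers rose. Without LPS mouse 6, or without LPS mouse 7, 2 squamous and 4 skeletal muscle markers rose. Results for the transcription factors are therefore also given with LPS mouse 1 as the only LPS mouse, which is then assumed to vary like the mice of the other groups.

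The lung label was checked against marker genes. The surfactant gene Sftpc, a marker of type 2 alveolar (AT2) cells, stood at 24216, 19567 and 24536 CPM in control, 16566, 11054 and 8322 CPM in LPS and 8528 and 17889.8 CPM in dual-treated mice. Ager, a marker of type 1 alveolar (AT1) cells, stood at 2336, 2186 and 2338 CPM in control, 2432, 2011 and 1296 CPM in LPS and 979 and 1411 CPM in dual-treated mice. All 8 libraries thus held lung epithelial RNA. Nkx2-1 is also a thyroid gene, and 5 thyroid markers, led by Tg, summed to 3.91, 3.29 and 4.28 CPM in control, 5.81, 5.14 and 3.91 CPM in LPS and 8.99 and 2.85 CPM in dual-treated mice. In LPS against control 0 of 3 tested thyroid markers passed an adjusted p under 0.05 and a fold over 2 by edgeR, 0 an unadjusted p under 0.05 with that fold, and 2 by DESeq2. By edgeR 1 was called lower without control mouse 2 or LPS mouse 6, and 1 higher without dual-treated mouse 2 or mouse 5. Foxa2 is also a liver gene, and 5 liver markers, led by Fabp1, summed to at most 5.92 CPM in any mouse, with Serpina1c at 0 in all 8. In LPS against control 0 of 2 tested liver markers passed these criteria by edgeR, 0 with an unadjusted p under 0.05 and that fold, and 0 by DESeq2, while 1 was lower in dual-treated lungs than in each of the other groups (2 against control without dual-treated mouse 5).

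In the embryo the lung bud grows by exchange between an endodermal epithelium and the mesenchyme around it. T-box factors, which bind DNA through the T-box domain, and the forkhead factor Foxf1 act in the mesenchyme, where Fgf10 is made, and Tcf21 marks fibroblast progenitors. Nkx2-1 defines the respiratory endoderm, the forkhead factors Foxa1 and Foxa2 open chromatin at epithelial genes, and Gata6 acts with them in alveolar maturation.

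In LPS lungs, 6 of the 10 factors were lower than in every control mouse (Tbx2, Tbx3, Tbx4, Tcf21, Nkx2-1 and Foxa2) and 4 were higher than in every control mouse (Tbx5, Foxf1, Foxa1 and Gata6), beside 37.3% and 34.7% of tested genes. The 6 lower ones held with 3 other scalings, while scaling by library size alone left Foxa1 as the only higher one, since Tbx5, Foxf1 and Gata6 then overlapped with control, and upper-quartile scaling left Tbx5 overlapping. In dual-treated lungs all 10 were lower than in every control mouse under each of the 4 scalings, beside 26.2% of tested genes with TMM. Set against LPS lungs, dual-treated lungs were higher in Tbx2, Tbx4, Nkx2-1 and Foxa2 and lower in Tbx5, Foxf1, Foxa1 and Gata6, while Tbx3 and Tcf21 overlapped, beside 37.9% of tested genes higher and 32.9% lower with no overlap. By library size alone Tbx3 was also higher and Foxf1 overlapped in that comparison, and upper-quartile scaling also put Tbx3 higher. In bulk tissue, fewer cells of a type and less RNA per cell cannot be told apart.

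**Figure D1:**
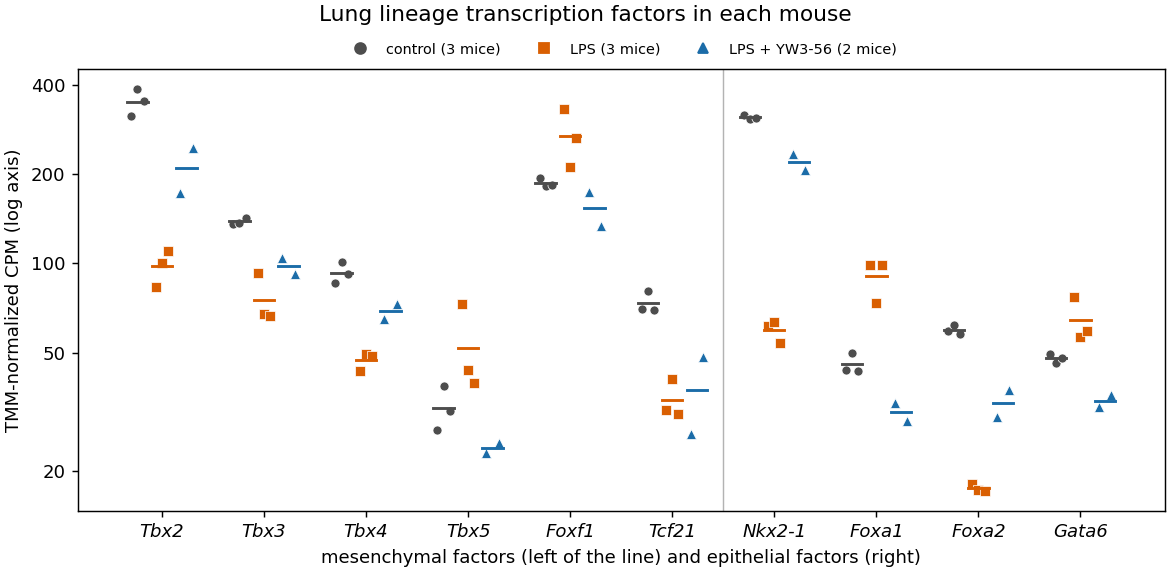
Each point is 1 mouse and each line a group mean, with TMM-normalized CPM on a log axis and the 10 factors along the other axis. Nkx2-1 spans 53.9 to 63.4 CPM in LPS and 306 to 317 CPM in control mice, while Foxa1 spans 73.6 to 98.7 CPM and 43.5 to 49.9 CPM.

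Tbx2, a T-box repressor of the lung mesenchyme, was measured at 313, 386 and 351 CPM in control mice 1, 2 and 4. It was at 82.9, 100.3 and 110.1 CPM in LPS mice 1, 6 and 7 and at 173 and 245 CPM in dual-treated mice 2 and 5. The 3 groups did not overlap, with LPS lowest and the dual treatment between LPS and control. Group means were 349.9 ± 36.7 (SD, n = 3), 97.8 ± 13.7 (SD, n = 3) and 209 ± 50.8 (SD, n = 2) CPM in that order. The fitted log2 fold change was -1.84 (SE 0.16) for LPS against control, or 3.58-fold lower. It was -0.74 (SE 0.18) for dual against control, or 1.67-fold lower. Between the dual treatment and LPS it was 1.10 (SE 0.17), or 2.14-fold higher. With LPS mouse 1 as the only LPS mouse, LPS against control gave -2.07. Of Tbx2, Tbx3, Tbx4 and Tbx5, Tbx2 had the largest difference between LPS and control under each of the 4 scalings.

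Tbx3, the closest paralog of Tbx2 and also a repressor, was at 136, 137 and 142 CPM in control mice. LPS mice had 92.4, 67.2 and 66.3 CPM and dual-treated mice 104 and 91.9 CPM. All LPS and dual-treated mice were below the lowest control mouse, and dual-treated mouse 5 was just below LPS mouse 1, so these groups overlapped. Its means were 138 ± 3.46 (SD, n = 3) in control, 75.3 ± 14.8 (SD, n = 3) in LPS and 98.1 ± 8.67 (SD, n = 2) CPM in dual-treated lungs. LPS against control gave a log2 fold change of -0.88 (SE 0.13), and dual against control -0.50 (SE 0.15). Dual against LPS gave 0.38 (SE 0.15), and 0.72 by library size. LPS mouse 1 was the least distant from control, and with it as the only LPS mouse the value for LPS against control was -0.58. The value for dual against LPS was then 0.079.

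Tbx4, which acts with Tbx5 in lung bud growth and is a mark of lung fibroblasts, was at 85.6, 101 and 92.2 CPM in control mice. It was at 43.4, 49.4 and 48.6 CPM in LPS mice and 64.8 and 73.1 CPM in dual-treated mice. The groups were separate, with the dual-treated mice between LPS and control. Means were 93.0 ± 7.81 (SD, n = 3), 47.1 ± 3.26 (SD, n = 3) and 69.0 ± 5.90 (SD, n = 2) CPM. Its log2 fold change was -0.98 (SE 0.10) in LPS against control, 1.97-fold lower. In dual against control it was -0.43 (SE 0.11), and in dual against LPS 0.55 (SE 0.11). With LPS mouse 1 as the only LPS mouse, LPS against control gave -1.095.

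Tbx5, known for limb and heart development as well as lung bud growth, was at 27.5, 38.5 and 31.8 CPM in control mice. LPS mice had 72.7, 43.7 and 39.4 CPM and dual-treated mice 23.0 and 24.8 CPM. LPS mouse 1 was far above LPS mice 6 and 7, whose values lay just above control mouse 2, and both dual-treated mice were below all others. Tbx5 was thus on the other side of control from Tbx2, Tbx3 and Tbx4 in LPS lungs, although by library size and upper-quartile scaling its LPS and control mice overlapped. The means were 32.6 ± 5.53 (SD, n = 3), 51.9 ± 18.2 (SD, n = 3) and 23.9 ± 1.30 (SD, n = 2) CPM. The fitted log2 fold change for LPS against control was 0.67 (SE 0.22). Without LPS mouse 1 it was 0.35, and with LPS mouse 1 as the only LPS mouse it was 1.16. For dual against control it was -0.45 (SE 0.25), and for dual against LPS -1.12 (SE 0.26), or 2.17-fold lower. Tbx5 is also a heart gene, and 8 heart muscle markers, led by Myh6, summed to 448, 1206 and 692 CPM in control, 617, 958 and 581 CPM in LPS and 255 and 251 CPM in dual-treated mice, and 1 fell with LPS. Another rose, but not by library size or without control mouse 1, control mouse 4 or LPS mouse 6, and 2 rose without LPS mouse 7. In dual-treated lungs, where Tbx5 was lowest, 7 of the 8 were called lower than in control (2 without dual-treated mouse 2) and 6 of the 8 lower than in LPS lungs. LPS mouse 1, with the highest Tbx5, was not the LPS mouse with the highest heart sum, and the part of heart RNA in the Tbx5 values was not tested.

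Foxf1, a forkhead factor of lung mesenchyme and of capillary endothelium, was at 194, 182 and 183 CPM in control mice. It was at 331, 211 and 263 CPM in LPS mice and 174 and 134 CPM in dual-treated mice. Every LPS mouse was above every control mouse and every dual-treated mouse below, although LPS mouse 6 was close to control and overlapped with it by library size scaling. Means were 186 ± 6.50 (SD, n = 3) in control, 268 ± 60.1 (SD, n = 3) in LPS and 154 ± 28.7 (SD, n = 2) CPM in dual-treated lungs. LPS against control gave 0.53 (SE 0.16) on the log2 scale, and 0.83 with LPS mouse 1 alone in its group. Dual against control gave -0.27 (SE 0.19), with -0.51 without dual-treated mouse 2 and -0.12 without mouse 5. Dual against LPS gave -0.80 (SE 0.19).

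Tcf21, a basic helix-loop-helix factor of lipofibroblast and other fibroblast lineages, was at 70.2, 80.5 and 69.8 CPM in control mice. LPS mice had 32.0, 40.6 and 31.1 CPM, and dual-treated mice 2 and 5 had 26.5 and 48.2 CPM. Both treated groups were below control, and the dual-treated mice lay on either side of the 3 LPS mice. Means were 73.5 ± 6.07 (SD, n = 3), 34.6 ± 5.23 (SD, n = 3) and 37.4 ± 15.3 (SD, n = 2) CPM. Its log2 fold changes were -1.09 (SE 0.20) for LPS and -0.98 (SE 0.23) for the dual treatment, each against control. The latter was -0.64 without dual-treated mouse 2 and -1.50 without mouse 5. Dual against LPS gave 0.11 (SE 0.22), smaller than its standard error. Without dual-treated mouse 5 this value was -0.41, and without dual-treated mouse 2 it was 0.45. With LPS mouse 1 as the only LPS mouse, LPS against control gave -1.195.

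Nkx2-1, the homeodomain factor that sets lung epithelial identity and drives surfactant genes, was at 317, 306 and 309 CPM in control mice. It was at 61.3, 63.4 and 53.9 CPM in LPS mice and 234 and 206 CPM in dual-treated mice. The 3 groups were far apart, with LPS lowest, and mice of a group lay close together. Means were 311 ± 5.41 (SD, n = 3), 59.5 ± 5.0 (SD, n = 3) and 219.7 ± 19.6 (SD, n = 2) CPM. LPS against control gave a log2 fold change of -2.38 (SE 0.11), 5.22-fold lower, the largest among the 10 factors under each of the 4 scalings. Dual against control gave -0.50 (SE 0.11), or 1.41-fold lower. Dual against LPS gave 1.88 (SE 0.11), or 3.69-fold higher. With LPS mouse 1 as the only LPS mouse, LPS against control gave -2.33.

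Foxa1, a forkhead factor that can bind closed chromatin, was at 43.5, 49.9 and 43.5 CPM in control mice. LPS mice had 98.7, 73.6 and 98.6 CPM and dual-treated mice 33.8 and 29.3 CPM. LPS mice were above all control mice, and the dual-treated mice were below all control mice, under each of the 4 scalings. Means were 45.6 ± 3.71 (SD, n = 3), 90.3 ± 14.5 (SD, n = 3) and 31.5 ± 3.14 (SD, n = 2) CPM. The log2 fold change was 0.98 (SE 0.13) for LPS against control, or 1.98-fold higher. It was -0.53 (SE 0.15) for dual against control. For dual against LPS it was -1.52 (SE 0.15), or 2.86-fold lower. With LPS mouse 1 as the only LPS mouse, LPS against control gave 1.12.

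Foxa2, the paralog that restrains goblet cell formation in airways, was at 59.1, 62.2 and 57.6 CPM in control mice. It was at 18.1, 17.2 and 17.1 CPM in LPS mice and 30.3 and 37.3 CPM in dual-treated mice. The groups did not overlap, and Foxa2 was lowest where Foxa1 was highest, in LPS lungs. Means were 59.6 ± 2.35 (SD, n = 3), 17.5 ± 0.533 (SD, n = 3) and 33.8 ± 4.98 (SD, n = 2) CPM. LPS against control gave -1.77 (SE 0.11) on the log2 scale, 3.41-fold lower. Dual against control gave -0.82 (SE 0.12), 1.76-fold lower. Dual against LPS gave 0.95 (SE 0.11), 1.93-fold higher. With LPS mouse 1 as the only LPS mouse, LPS against control gave -1.71.

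Gata6, a zinc finger factor of alveolar epithelium and of other endodermal and mesodermal tissues, was at 49.6, 46.0 and 47.9 CPM in control mice. LPS mice had 77.1, 56.4 and 59.3 CPM and dual-treated mice 32.9 and 36.0 CPM. LPS mice were above control with LPS mouse 1 highest, dual-treated mice were below control, and by library size scaling LPS and control overlapped. Means were 47.8 ± 1.81 (SD, n = 3), 64.3 ± 11.2 (SD, n = 3) and 34.4 ± 2.19 (SD, n = 2) CPM. Its log2 fold change for LPS against control was 0.43 (SE 0.12), the smallest in size among the 10 factors with TMM, and 0.69 with LPS mouse 1 as the only LPS mouse. Without LPS mouse 1 it was 0.28. Dual against control gave -0.47 (SE 0.14) and dual against LPS -0.90 (SE 0.14).

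A gene was called when the quasi-likelihood test of edgeR gave an adjusted p under 0.05 and the fold change was over 2. In LPS against control 4 factors were called lower (Tbx2, Tcf21, Nkx2-1 and Foxa2), beside 21.3% of all tested genes, and 6 did not overlap with control on the low side, beside 37.3%. On the high side 0 factors were called by edgeR, 0 at an unadjusted p under 0.05 with a fold over 2, and 1 by DESeq2 (Foxa1), beside 17.9% of tested genes. The fold criterion sets this 0, since all 4 higher factors passed without it, and 4 did not overlap, beside 34.7%. Several factors lay near the fold threshold: Foxa1 was called higher without control mouse 2 (1.05) or LPS mouse 6 (1.12). Tbx4 was called lower without control mouse 1 (-1.04) or LPS mouse 6 (-1.01), and Tbx3 without LPS mouse 1 (-1.04). By library size Tbx3 (-1.18) and Tbx4 (-1.26) were called lower as well, making 6 factors, beside 5124 of 18560 tested genes. Upper-quartile scaling, or no filter on low counts, added Tbx4 only. With LPS mouse 1 as the only LPS mouse, Tbx4 was at -1.095, Tbx5 at 1.16 and Foxa1 at 1.12. The factors were chosen on these values, so nothing is read from the counts.

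In dual against control 0 factors were called lower and 0 higher by edgeR, 0 at an unadjusted p under 0.05 with a fold over 2, and 0 by DESeq2, beside 1.90% of tested genes called lower and 5.25% called higher. With no fold criterion 7 passed as lower (Tbx2, Tbx4, Tcf21, Nkx2-1, Foxa1, Foxa2 and Gata6). On the low side 10 did not overlap, beside 26.2% of tested genes, and on the high side 0, beside 26.1%. Tcf21 was called lower without control mouse 1 (-1.01) or control mouse 4 (-1.04). Without dual-treated mouse 5, Tbx2 (-1.04), Tcf21 (-1.50) and Foxa2 (-1.01) were called lower. In dual against LPS, Tbx5 and Foxa1 were called lower, beside 14.0% of tested genes, and Tbx2 and Nkx2-1 higher, beside 19.8%. By library size Tbx5 was not called (-0.77) and Foxa2 was added as higher, and upper-quartile scaling also added Foxa2. With LPS mouse 1 as the only LPS mouse, Foxf1 was at -1.11 and Gata6 at -1.17. Among the factors 4 did not overlap on the low side and 4 on the high side, beside 32.9% and 37.9% of tested genes. Without LPS mouse 1 neither Tbx5 (-0.80) nor Tbx2 (0.98) was called. Without dual-treated mouse 5 Tbx2 was not called (0.80), and without dual-treated mouse 2 Foxf1 (-1.03) and Foxa2 (1.07) were added.

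The median log2 fold change of the 10 factors was -0.93 in LPS against control, beside -0.01 over all tested genes. In dual against control it was -0.50, beside 0.00. In dual against LPS it was 0.25, beside 0.06, and without dual-treated mouse 5 it was 0.015. With LPS mouse 1 as the only LPS mouse, the median of the factors in dual against LPS was 0.149. Scaling by library size alone moved the median of all genes to -0.29 in LPS against control and 0.38 in dual against LPS, and the medians of the factors to -1.22 and 0.58.

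Levels of different genes were compared as CPM per kilobase of exon (mean ± SD over 3 control, 3 LPS and 2 dual-treated mice). In control lungs Nkx2-1 was highest at 102 ± 1.78 CPM per kb, above Foxf1 at 75.5 ± 2.64 and Tbx2 at 68.1 ± 7.14, whose mice overlapped. Tcf21 at 27.0 ± 2.23 and Tbx4 at 20.9 ± 1.76 came next, then Foxa2 at 17.6 ± 0.692 and Tbx3 at 16.8 ± 0.421 CPM per kb, which overlapped with each other. Foxa1 at 13.6 ± 1.10, Tbx5 at 6.93 ± 1.18 and Gata6 at 5.19 ± 0.197 CPM per kb were lowest, each apart from its neighbours. Nkx2-1, Foxf1 and Tbx2 thus led in control lungs, and Nkx2-1 stood at percentile 98.7 of all tested genes per kb.

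In LPS lungs the order differed, and Foxf1 led at 109 ± 24.4 CPM per kb, followed by Foxa1 at 26.8 ± 4.30, each apart from its neighbours. Nkx2-1 at 19.6 ± 1.65 and Tbx2 at 19.0 ± 2.67 CPM per kb overlapped with each other. Tcf21 at 12.7 ± 1.92, Tbx5 at 11.0 ± 3.86, Tbx4 at 10.6 ± 0.734, Tbx3 at 9.14 ± 1.80 and Gata6 at 6.97 ± 1.22 CPM per kb formed a run in which each overlapped with the next. Foxa2, at 5.15 ± 0.157 CPM per kb, was below them all. Nkx2-1 stood at percentile 88.0 and Foxa1, which was at percentile 85.5 in control, at 91.2.

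In dual-treated lungs Nkx2-1 at 72.4 ± 6.46 and Foxf1 at 62.4 ± 11.6 CPM per kb overlapped at the top, with Tbx2 below at 40.7 ± 9.89. Tbx4 at 15.5 ± 1.33, Tcf21 at 13.7 ± 5.61 and Tbx3 at 11.9 ± 1.05 CPM per kb overlapped in turn. Foxa2 at 9.95 ± 1.47 and Foxa1 at 9.38 ± 0.932 overlapped, and Tbx5 at 5.08 ± 0.277 and Gata6 at 3.73 ± 0.238 CPM per kb were lowest and apart. The top 3 genes were those of control lungs.

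Dividing the counts per exon length of a pair of genes within a library removes any effect of scaling. Foxa1 over Foxa2 was 0.744, 0.811 and 0.762 in control mice, 5.51, 4.32 and 5.81 in LPS mice and 1.13 and 0.794 in dual-treated mice. Foxa2 exceeded Foxa1 in each control mouse and Foxa1 exceeded Foxa2 in each LPS mouse, while the dual-treated mice lay on either side of 1. Foxa1 over Nkx2-1 was 0.124, 0.147 and 0.127 in control, 1.45, 1.05 and 1.65 in LPS and 0.130 and 0.129 in dual-treated mice. Foxa1 exceeded Nkx2-1 in LPS mice, and the dual-treated ratios lay within the range of control. Gata6 over Nkx2-1 was 0.0516, 0.0494 and 0.0509 in control, 0.414, 0.293 and 0.363 in LPS and 0.0463 and 0.0575 in dual-treated mice. All LPS ratios of these epithelial factors were thus above every ratio of the other groups.

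Within the T-box family, Tbx5 over Tbx4 was 0.303, 0.359 and 0.326 in control, 1.58, 0.835 and 0.765 in LPS and 0.334 and 0.320 in dual-treated mice. Only LPS mouse 1 had more Tbx5 than Tbx4 per length, and dual-treated ratios were within the control range. Tbx5 over Tbx2 was 0.0960, 0.109 and 0.0991 in control, 0.958, 0.476 and 0.391 in LPS and 0.145 and 0.111 in dual-treated mice, separate for all 3 groups. Tbx3 over Tbx2 was 0.271, 0.222 and 0.253 in control, 0.695, 0.418 and 0.376 in LPS and 0.376 and 0.234 in dual-treated mice. LPS ratios of this pair were above control, with LPS mouse 7 and dual-treated mouse 2 level at the printed digits. Foxf1 over Tcf21 was 3.05, 2.50 and 2.90 in control, 11.4, 5.73 and 9.35 in LPS and 7.25 and 3.07 in dual-treated mice, and dual-treated mouse 2 was among the LPS mice while mouse 5 was next to control.

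**Figure D2:**
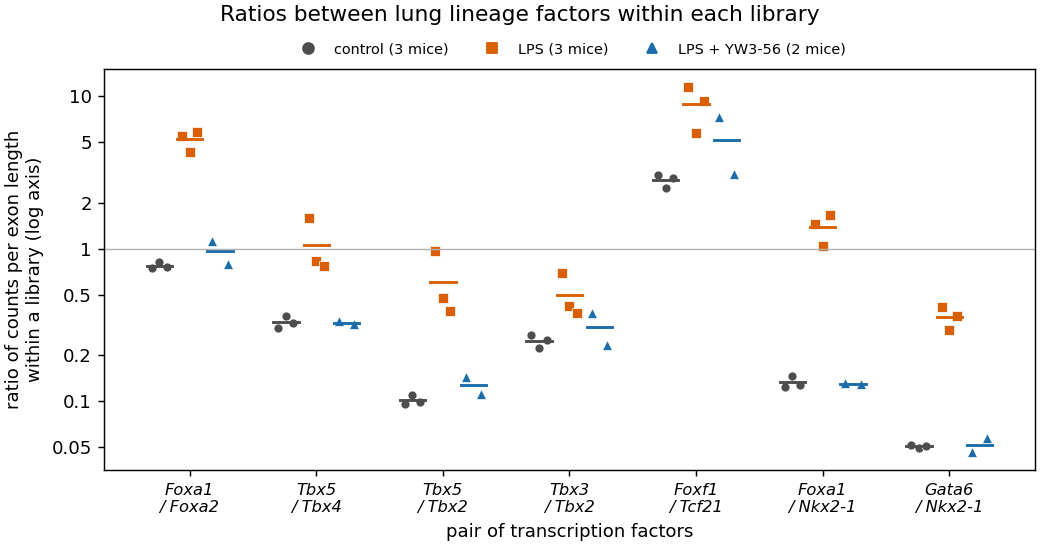
Each point is the ratio of counts per exon length of a pair of factors within the library of 1 mouse, on a log axis, and each line is a group mean, with a grey line at 1. Foxa1 over Foxa2 lies between 0.744 and 0.811 in control and between 4.32 and 5.81 in LPS mice.

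The genes lie on 7 chromosomes of GRCm39, and Tbx2 with Tbx4 and Tbx3 with Tbx5 form pairs of neighbours. Tbx2 (ENSMUSG00000000093) is at chr11:85723377-85734115 and Tbx4 (ENSMUSG00000000094) at chr11:85776887-85806923, both on the plus strand. Tbx3 (ENSMUSG00000018604) is at chr5:119806298-119822797 and Tbx5 (ENSMUSG00000018263) at chr5:119970733-120023284, also on the plus strand. The genes of the first pair were both lower in LPS than in control lungs, whereas those of the second were on opposite sides of control with TMM. Foxf1 (ENSMUSG00000042812, chr8:121811074-121814883) and Gata6 (ENSMUSG00000005836, chr18:11051565-11086995) are on the plus strand. On the minus strand are Tcf21 (ENSMUSG00000045680, chr10:22692803-22696073), Foxa2 (ENSMUSG00000037025, chr2:147884797-147889005), Nkx2-1 (ENSMUSG00000001496, chr12:56578742-56583722) and Foxa1 (ENSMUSG00000035451, chr12:57587414-57593702). Nkx2-1 and Foxa1 share chromosome 12 and were on opposite sides of control in LPS lungs.

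Within 250 kb of the factors lie 70 other genes that are in the count files, of which 30 were tested. With LPS 17 of the 30 fell and 2 rose against control, beside 21.3% and 17.9% of all tested genes. In dual-treated against LPS lungs 13 were higher and 1 lower, beside 19.8% and 14.0%. The count of lower ones was 2 without LPS mouse 1 and 3 by DESeq2. Fendrr, a long noncoding RNA that starts beside Foxf1 on the other strand, had 308, 288 and 285 CPM in control, 106, 71.6 and 116 CPM in LPS and 194 and 195 CPM in dual-treated mice. It fell with LPS by 1.58 on the log2 scale (SE 0.16), in lungs where Foxf1 itself was higher with TMM, and is 1225 bases away. By library size the LPS and control mice overlapped in Foxf1. Mthfsd, on the other side of Foxf1, fell as well (-2.27, SE 0.16), and Gm26878 had 82, 69 and 74 counts in control, 2, 1 and 1 in LPS and 124 and 186 in dual-treated mice. Near Nkx2-1, Sfta3 had 118, 138 and 155 CPM in control, 38.0, 35.7 and 36.6 CPM in LPS and 105 and 101 CPM in dual-treated mice, and fell with LPS (-1.90, SE 0.11). Gm47720 (-4.30, SE 0.45) and Gm26973 (-1.81, SE 0.19) there fell too, so Nkx2-1 and these 3 neighbours were all lower. Pax9, a paired-box factor in the same region, had 1.47, 2.25 and 1.15 CPM in control, 5.40, 6.76 and 12.2 CPM in LPS and 0.953 and 0.527 CPM in dual-treated mice, and rose with LPS (2.32, SE 0.39). It was highest in LPS mouse 7, which also had the most squamous marker RNA, and the part of that RNA in the Pax9 value was not tested.

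Around the T-box genes, Tbx3os1, a noncoding RNA on the strand opposite to Tbx3, had 25.9, 22.8 and 20.7 CPM in control, 3.14, 2.77 and 3.52 CPM in LPS and 11.2 and 11.5 CPM in dual-treated mice. It fell with LPS by 2.88 on the log2 scale (SE 0.16), beside -0.88 for Tbx3. Gm43050, opposite to Tbx5, had 7.24, 7.60 and 9.10 CPM in control, 1.90, 2.25 and 0.614 CPM in LPS and 6.85 and 7.16 CPM in dual-treated mice. It fell with LPS (-2.33, SE 0.37) where Tbx5 was higher with TMM. By library size and upper-quartile scaling the LPS and control mice overlapped in Tbx5. Next to Tbx2, 2610027K06Rik starts 26 bases away on the other strand and fell (-1.46, SE 0.36), as did Bcas3os1 (-1.94, SE 0.51), while the helicase gene Brip1 rose (1.56, SE 0.39). Near Foxa2, 9030622O22Rik fell (-3.21, SE 0.32), and Gata6os, opposite to Gata6, fell (-1.84, SE 0.29) where Gata6 was higher with TMM. By library size the LPS and control mice overlapped in Gata6 (0.131). Opposite to Tcf21, Gm10824 had 45, 50 and 32 counts in control, 4, 1 and 1 in LPS and 19 and 44 in dual-treated mice. The strand setting of the counting is not stated, so reads in shared exons cannot be assigned with certainty: the shared length is 1468 bases for Tbx3 and Tbx3os1, 1154 for Gata6 and Gata6os, and 505 for Tcf21 and Gm10824. It is 194 bases for Tbx5 and Gm43050, 110 for Nkx2-1 and Gm26973, 668 for Tbx2 and Gm72096, 98 for Foxf1 and Gm56049, and 38 for Tbx3 and Tbx3os2.

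**Figure D3:**
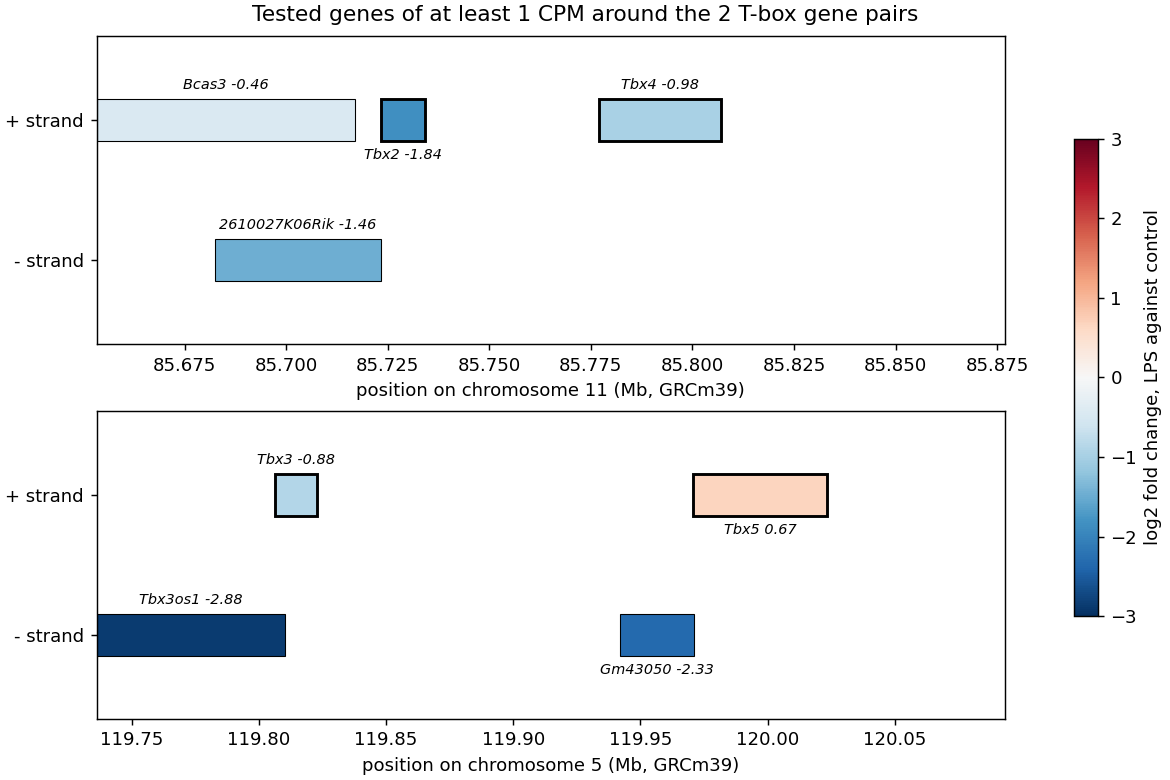
Boxes are tested genes of at least 1 CPM on each strand of GRCm39 around Tbx2 with Tbx4 and around Tbx3 with Tbx5, with positions in Mb, factors in thick outline, and fill and label giving the log2 fold change of LPS against control. Tbx5 is at 0.67 with TMM, although its LPS and control mice overlap under library size and upper-quartile scaling, next to Gm43050 at -2.33.

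RefSeq promoters (250 bases before a start, from a table on GRCm38.p6) were found for 5 of the factors, Tbx4, Tcf21, Nkx2-1, Foxa1 and Foxa2, with 7 promoters, and each was placed on GRCm39 by an exact match. Tbx2, Tbx3, Tbx5, Foxf1 and Gata6 were not in the table. Both strands were searched for a T-box motif (AGGTGTGA), a forkhead motif (TGTTTAC), an NKX2-1 core (CTCAAG) and a GATA motif (AGATAA). These are in 1.12%, 3.17%, 13.3% and 9.99% of the 32851 promoters of the table, and in 0, 1, 2 and 2 of the 7. The forkhead motif is in the Foxa1 promoter on the strand opposite to the gene, 141 bases before the start. The promoter of Foxa2 with the start at 147887384 holds an NKX2-1 core on the opposite strand, 187 bases before the start, and a GATA motif on the same strand at 183, which share 2 bases. Tcf21 has the same pair of motifs, the NKX2-1 core at 191 and the GATA motif at 31 bases before its start. The Foxa1 promoter has 62% GC and a CpG ratio (observed over expected) of 0.887, against medians of 52.4% and 0.374 over all promoters. The ratio is 0.730, 0.732 and 0.376 for the promoters of Foxa2, 0.564 for Nkx2-1, 0.285 for Tbx4 and 0.293 for Tcf21. In that order these starts lie 1621, 1137, 116, 1639, 10704 and 31 bases from the start of the transcript annotated as canonical. The Foxa1 start lies 47 bases from it. Only the Tbx4 promoter and the Foxa2 promoter at 0.730 overlap no annotated exon, so several ratios describe sequence within genes. The exon-free stretches for the forkhead genes are printed because Foxa1 and Foxa2 were on opposite sides of control in LPS lungs, with the motif letters in capitals, 5′ to 3′ on the minus strand of GRCm39. The first is chr12:57592945-57593147, the second chr2:147887385-147887634, both within the gene, and the third, with none of the 4 motifs, chr2:147889006-147889139 upstream of it.
Foxa1: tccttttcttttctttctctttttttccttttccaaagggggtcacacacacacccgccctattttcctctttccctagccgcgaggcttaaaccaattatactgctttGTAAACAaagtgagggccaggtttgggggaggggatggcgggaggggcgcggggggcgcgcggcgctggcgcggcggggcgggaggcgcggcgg
Foxa2 inner start: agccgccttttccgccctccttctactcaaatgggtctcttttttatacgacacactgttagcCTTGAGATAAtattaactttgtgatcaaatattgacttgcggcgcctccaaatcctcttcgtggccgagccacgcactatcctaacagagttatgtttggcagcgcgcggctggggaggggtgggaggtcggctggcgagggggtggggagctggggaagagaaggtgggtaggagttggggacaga
Foxa2 outer start: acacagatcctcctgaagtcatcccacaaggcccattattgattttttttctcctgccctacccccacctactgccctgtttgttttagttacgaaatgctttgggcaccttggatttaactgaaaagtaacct
The capitals mark the forkhead motif of Foxa1 as its reverse complement GTAAACA, and in Foxa2 the reverse complement CTTGAG of the NKX2-1 core running into AGATAA. A match is a description of letters and no evidence of binding.

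For comparison with the epithelial factors, 26 other epithelial transcription factors were tested, of which 5 fell and 7 rose with LPS. Scaling by library size gave 6 and 4. Counts in this and every other list stand beside 21.3% of all tested genes called lower and 17.9% called higher in LPS against control. These shares were 1.90% and 5.25% in dual against control, and 14.0% and 19.8% in dual against LPS. No list was tested as a set. Etv5, an ETS factor downstream of FGF signals in AT2 cells, had 236, 182 and 251 CPM in control, 23.8, 25.2 and 22.6 CPM in LPS and 142 and 175 CPM in dual-treated mice, and fell with LPS (-3.22, SE 0.15). Grhl2, a factor of epithelial junctions, fell (-1.67, SE 0.12), as did Cebpa (-1.09, SE 0.12), a factor of AT2 maturation. Sox9, a factor of the distal lung bud, had 0.636, 0.798 and 0.506 CPM in control, 14.8, 8.03 and 7.09 CPM in LPS and 1.36 and 0.483 CPM in dual-treated mice, and rose (3.94, SE 0.44). Spdef, a goblet cell factor that Foxa2 restrains, had 2.10, 2.11 and 2.44 CPM in control, 24.1, 20.6 and 22.0 CPM in LPS and 2.72 and 1.40 CPM in dual-treated mice, and rose (3.32, SE 0.24). Spdef was highest in the group with the lowest Foxa2, and a link between these genes was not tested. Hopx (-0.11, SE 0.16) and Irx1 (0.44, SE 0.16), the other abundant genes of the list, were not called. Dual-treated lungs had 8 of the 26 lower and 2 higher than LPS lungs, or 6 lower and 4 higher by library size.

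Of 16 epithelial target genes 4 fell and 3 rose with LPS, or 4 and 4 with LPS mouse 1 as the only LPS mouse and 6 and 2 by library size. The secretoglobin gene Scgb1a1 had 29414, 36837 and 34433 CPM in control, 65313, 55395 and 53726 CPM in LPS and 22675 and 25095 CPM in dual-treated mice (0.79, SE 0.19, not called). Sftpc, which Nkx2-1 drives, had -0.93 (SE 0.32) in LPS against control and was not called, but was called lower without control mouse 2 (-1.03) or LPS mouse 1 (-1.23), and Sftpa1 had -0.33 (SE 0.17). The other surfactant genes of the list, chosen after their values were seen, were Sftpb at -0.91 (SE 0.23), not called, and Sftpd at 1.02 (SE 0.16), which rose. Sftpb was called lower without control mouse 2 (-1.01) or LPS mouse 1 (-1.14), and Sftpd was not called without control mouse 2 (0.98) or LPS mouse 1 (0.93). Surfactant genes thus lay on both sides of 0 while Nkx2-1 was at -2.38. The phosphate transporter Slc34a2 fell with LPS (-2.26, SE 0.13), as did Lpcat1 (-1.86, SE 0.12), which makes surfactant lipid, while Cdh1 (1.46, SE 0.12), the epithelial cadherin, and Scgb3a1 (1.37, SE 0.15) rose. Against LPS, 4 of the 16 were lower and 3 higher in dual-treated lungs.

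Marker lists of epithelial cells were measured beside the epithelial factors. AT2 markers, led by Sftpc, summed to 37966, 31816 and 39855 CPM in control, 26210.0, 18376 and 14795 CPM in LPS and 19454 and 30674 CPM in dual-treated mice, and 3 of 8 fell with LPS (5 without control mouse 2 or LPS mouse 1). AT1 markers, led by Ager, summed to 5739, 5324 and 5477 CPM in control, 4433, 3654 and 2592 CPM in LPS and 3024 and 3918 CPM in dual-treated mice, and 4 of 8 fell. Without control mouse 1 or LPS mouse 7, 1 AT1 marker was called higher in LPS lungs. Airway markers, led by Scgb1a1, summed to 31614, 40304 and 37182 CPM in control, 68538, 59156 and 57672 CPM in LPS and 24196 and 26773 CPM in dual-treated mice, and 1 of 8 rose, or 3 without LPS mouse 1 or LPS mouse 6 and 2 without control mouse 2 or LPS mouse 7. By library size 1 airway marker was lower and none higher, against 1 higher with TMM at an unadjusted p under 0.05 with a fold over 2, and 2 by DESeq2. Scgb1a1, which was not called, makes up nearly all of the airway sum, so that sum describes little more than this gene. Alveolar sums were lower in LPS than in control mice, as Nkx2-1 and Foxa2 were, and no marker of these lists was at 0. The part of cell numbers in the values of the factors was not tested.

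Among 26 tested mesenchymal transcription factors other than the members, 13 fell with LPS, and 0 rose by edgeR, 0 at an unadjusted p under 0.05 with a fold over 2, and 0 by DESeq2. With no fold criterion Hoxa5 and Gli3, the latter chosen after its values were seen, passed as higher. With LPS mouse 1 as the only LPS mouse 11 fell and 1 rose, and by library size 17 fell. Foxf2, the paralog of Foxf1, had 35.7, 54.4 and 42.9 CPM in control, 5.87, 9.30 and 7.70 CPM in LPS and 13.1 and 22.5 CPM in dual-treated mice, and fell with LPS (-2.54, SE 0.25). Foxf1 and Foxf2 were thus on opposite sides of control in LPS lungs with TMM, though Foxf1 overlapped with control by library size. Meox2, a homeobox factor of mesoderm, fell (-2.33, SE 0.33), as did Zeb1 (-1.17, SE 0.13), a repressor of epithelial genes, and Heyl (-1.61, SE 0.15), a Notch target of pericytes. Hoxa5, a patterning factor of lung mesenchyme, had 42.7, 42.5 and 43.0 CPM in control, 114, 55.0 and 55.7 CPM in LPS and 21.1 and 41.6 CPM in dual-treated mice and was not called in LPS against control. Like Tbx5 it was highest in LPS mouse 1. In dual against LPS 8 of the 26 were higher (13 by library size) and 2 lower, the latter not by library size, with 5 higher without dual-treated mouse 5 and 1 lower without LPS mouse 1 or dual-treated mouse 2.

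Fibroblast markers, led by Inmt, summed to 4873, 4893 and 5219 CPM in control, 1742, 1627 and 1565 CPM in LPS and 3278 and 3820.2 CPM in dual-treated mice, and 4 of 10 fell with LPS. Inmt, the most abundant, was at 2935, 2958 and 3280.4 CPM in control, 177, 161 and 145 CPM in LPS and 1247 and 2165 CPM in dual-treated mice. Smooth muscle and pericyte markers, led by Pdgfrb, summed to 477, 569 and 497 CPM in control, 366, 378 and 414 CPM in LPS and 384 and 405 CPM in dual-treated mice, and 4 of 9 fell. Mesothelial markers, led by Msln, summed to 685, 563 and 600.2 CPM in control, 480.4, 427 and 356 CPM in LPS and 448 and 673 CPM in dual-treated mice, and 4 of 6 fell, or 1 without LPS mouse 7. Inmt alone carried most of the difference in the fibroblast sum, and 6 of the 10 markers were not called. The part of fibroblast numbers in the values of Tbx2, Tbx4 and Tcf21 was not tested.

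Of 19 tested endothelial transcription factors 12 fell and 1 rose with LPS, or 11 and 1 with LPS mouse 1 as the only LPS mouse and 13 and 1 by library size. Sox18, a factor of vessel growth, had 333, 353 and 411 CPM in control, 1.96, 2.02 and 1.62 CPM in LPS and 145 and 157 CPM in dual-treated mice, and fell by 7.61 on the log2 scale with LPS (SE 0.16). Erg, an ETS factor of vessel identity, fell (-3.62, SE 0.21), as did Epas1 (-1.16, SE 0.15), which senses hypoxia, while Ets1 (-0.06, SE 0.16) was not called. Foxc1, a forkhead factor, was at 2.25, 3.90 and 2.21 CPM in control and 8.78, 7.22 and 8.76 CPM in LPS mice and rose (1.57, SE 0.25). Endothelial markers, led by Cdh5, summed to 3862, 4296 and 4315 CPM in control, 2336, 1939 and 1819 CPM in LPS and 3429 and 3899 CPM in dual-treated mice, and 6 of 10 fell with LPS. Cdh5 itself was at 589.9, 659 and 737 CPM in control, 938, 657 and 642 CPM in LPS and 510.0 and 590.2 CPM in dual-treated mice, and was not called. Foxf1, which endothelium also expresses, was highest in LPS mouse 1, as Cdh5 was, while the sum of the list was lower in LPS than in control mice. Dual-treated lungs had 9 of the 19 higher and 2 lower than LPS lungs.

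Lung budding signals, among them the FGF, WNT and hedgehog genes that act upstream or downstream of the factors, held 22 tested genes, of which 6 fell and 1 rose with LPS (7 and 1 with LPS mouse 1 as the only LPS mouse), while scaling by library size gave 11 and none rising, against 1 rising with TMM at an unadjusted p under 0.05 with a fold over 2, and 1 by DESeq2. Fgf18, a growth factor of lung mesenchyme, had 10.8, 11.0 and 8.05 CPM in control, 0.415, 0.289 and 0.335 CPM in LPS and 3.86 and 8.61 CPM in dual-treated mice, and fell (-4.82, SE 0.39). Wnt2, the mesenchymal signal that induces Nkx2-1 in the embryo, had 8.42, 12.2 and 12.0 CPM in control, 0.475, 1.79 and 1.23 CPM in LPS and 5.13 and 8.91 CPM in dual-treated mice, and fell (-3.21, SE 0.41). Wnt2 and Nkx2-1 were both lowest in LPS mice, where 37.3% of tested genes were lower than in every control mouse. A link between these genes was not tested. Spry2, an inhibitor of FGF signals, rose (1.04, SE 0.20), but not without LPS mouse 1 (0.74). Fgfr2 (0.26, SE 0.10), Spry1 (0.75, SE 0.12) and Bmpr1a (0.25, SE 0.09), the most abundant of the list, were not called. Dual against LPS gave 5 higher and 2 lower, with 3 higher without dual-treated mouse 5.

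Paralogs of the factors, other T-box, forkhead, GATA and NKX genes, numbered 69, of which 38 were tested. With LPS 11 of the 38 fell and 8 rose, beside 21.3% and 17.9% of all tested genes. By library size 13 fell and 5 rose, beside 5124 and 2472 of 18560 tested genes. Foxs1, a forkhead gene of pericytes, fell (-2.55, SE 0.25), as did Foxf2 and the endothelial factor Gata2, at 204, 190.2 and 206 CPM in control and 67.5, 45.6 and 50.7 CPM in LPS mice (-1.87, SE 0.15). Foxq1 (1.47, SE 0.24), which acts in epithelia, and Foxc1 rose. Foxo3 (0.39, SE 0.09) and the ciliated cell factor Foxj1 (0.72, SE 0.18) were not called. In dual against LPS 6 were lower and 5 higher, with 3 higher without dual-treated mouse 5. Nkx2-2, Nkx2-4, Nkx2-6, Nkx1-2, Foxb1, Foxb2, Foxi2, Foxi3 and Tbx22 had 0 counts in all 8 mice.

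Neutrophil markers, led by S100a9, summed to 231, 128 and 134 CPM in control, 2190.4, 3059 and 1915 CPM in LPS and 1800.4 and 2483 CPM in dual-treated mice, and 7 of 8 rose with LPS. Their sums in LPS and dual-treated mice overlapped, with 4 of 8 called higher and 1 lower in dual-treated than in LPS lungs. Only 2 were higher without LPS mouse 1 or LPS mouse 7, and 1 was without dual-treated mouse 5 or with LPS mouse 1 as the only LPS mouse. Macrophage markers, led by Lyz2, summed to 6963, 6246 and 8325 CPM in control, 6616, 5690.4 and 3856 CPM in LPS and 7325 and 10265 CPM in dual-treated mice, and 1 of 8 fell with LPS, but not without control mouse 4 or LPS mouse 7 or by DESeq2. Without control mouse 1, 2 macrophage markers were higher in LPS lungs, and without LPS mouse 7 or with LPS mouse 1 as the only LPS mouse, 1 was. Dual-treated lungs had 5 of 8 macrophage markers called higher than control and 4 of 8 higher than LPS lungs. Lymphocyte markers, led by Cd79a, summed to 36.5, 38.2 and 35.1 CPM in control, 26.4, 26.4 and 15.3 CPM in LPS and 55.4 and 29.2 CPM in dual-treated mice, and 3 of 8 fell, or 1 with LPS mouse 1 as the only LPS mouse and 2 to 4 without 1 mouse. Another lymphocyte marker was called higher in LPS lungs at an unadjusted p under 0.05 with a fold over 2, by DESeq2, and without LPS mouse 7, dual-treated mouse 2 or dual-treated mouse 5. The part of these cells in the values of the factors was not tested.

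The factors differed in how closely they followed their common pattern, the mean of their z-scores over the 8 mice. Pearson's r with that mean was 0.839 for Tcf21, 0.804 for Tbx3, 0.729 for Foxa2, 0.671 for Tbx4, 0.651 for Tbx2 and 0.536 for Nkx2-1. It was 0.217 for Gata6, 0.153 for Tbx5, 0.034 for Foxf1 and -0.035 for Foxa1. The mean is made of these same factors, 6 of which were lower in LPS lungs, so r is higher for those by construction. Among 15603 other genes of at least 1 CPM, the patterns most like the mean were those of Ccser2 (r = 0.988, Spearman's rho = 0.976), Csdc2 (0.984 and 0.976), Efnb2 (0.979 and 0.905), Sms (0.979 and 0.881) and Map3k20 (0.978 and 0.952). The 8 mice form 3 groups, so r describes likeness over groups and carries no p. Among genes chosen after their values were seen, Slc27a3 and Fbxl7 were the closest to both Tbx2 (r = 0.996 and 0.998) and Tbx4 (r = 0.998 and 0.996). Sox18 was among the 5 closest to Nkx2-1 (r = 0.997), Robo4 among those to Foxf1 (r = 0.988) and Prox1 among those to Foxa1 (r = 0.993), also chosen after their values were seen. Of the 15603 genes, 1706 had r over 0.95 with Nkx2-1, 1066 with Tbx2, 860 with Tbx4, 433 with Foxa1 and 21 with Foxf1. A high r was thus shared by many genes for most of these factors, and is not particular to the named ones.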

How the data were processed

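RNA sequencing counts per gene were used for 8 mouse lungs (3 control, 3 LPS and 2 LPS plus YW3-56), as raw counts deposited by the authors, with 1 library per mouse. The authors checked reads with FastQC 0.11.9, trimmed them with Trim Galore, aligned them to GRCm39 with HISAT2 2.2.1 and counted them with featureCounts 2.0.1, and tested genes with DESeq2 at a fold change over 2 and p under 0.05. The strand and multi-mapping settings are not stated. Libraries held 19061949 to 20908608 counts, and counting error is small beside the spread between mice.

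Of 55416 gene identifiers 54749 were matched to GENCODE M39, and the 667 others held 0.0533% of counts. In R 4.3.3, edgeR 4.0.16 was used with filterByExpr, TMM scaling and quasi-likelihood F tests in 1 model of all 8 mice with 5 residual degrees of freedom. LPS was compared with control, LPS plus YW3-56 with control, and LPS plus YW3-56 with LPS. The first 2 of these share the control mice, and the LPS mice are shared as well. Genes were called at a Benjamini-Hochberg adjusted p under 0.05 and a fold change over 2. DESeq2 1.42.0 was the other tool. Replicates were compared in pairs and differed beyond counting error (chi-square over degrees of freedom of 8.08 to 40.8), so none is a copy of another.

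The 10 factors and the gene lists were chosen with earlier results from these data known, and so was the alternative without LPS mice 6 and 7. The factors were chosen on these values, so their calls are counted as a description and no p is given for them. The naming rule covers all 10 factors and, in each list of transcription factors, signals, targets or paralogs, the 3 genes of highest mean CPM and the 2 largest falls and 2 largest rises with LPS among called genes of at least 1 CPM. It also names each called neighbour of at least 1 CPM within 250 kb, the 5 genes closest to the mean pattern of the factors, and the most abundant marker of each list with any at 0. Marker lists covered AT1, AT2, airway, fibroblast, smooth muscle and pericyte, endothelial, mesothelial, neutrophil, macrophage, lymphocyte, squamous, skeletal muscle, heart, thyroid and liver cells. Of 10 squamous markers 9 were matched, Lor being absent from the annotation under that symbol.

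Levels of different genes were divided by the union length of their exons. Alternatives were DESeq2 size factors, library size alone, upper-quartile scaling, the DESeq2 test, no filter, at least 10 counts in every library, unadjusted p, no fold criterion, only the 2 groups compared, leaving out each mouse, and LPS mouse 1 as the only LPS mouse. Promoters came from a RefSeq table on GRCm38.p6 and were placed on GRCm39 by exact match. A planned comparison with protein sequences was not run. The values of 1 paralog are not reported here.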

Additional observations from a re-analysis of the deposited data

How the results depend on the processing

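With library size as the only scaling, the median log2 fold change of the factors was -1.22 in LPS against control and 0.58 in LPS plus YW3-56 against LPS, because that scaling moved the median of all genes from -0.01 to -0.29 and from 0.06 to 0.38. Genes called higher then made up 32.5% (45.6% with TMM) and 74.7% (58.5% with TMM) of called genes in these comparisons. In LPS plus YW3-56 against LPS 1 factor was called lower, beside 1735 of 18560 tested genes. With no fold criterion 12346, 2997 and 10960 genes passed in LPS against control, LPS plus YW3-56 against control and LPS plus YW3-56 against LPS, against 7279, 1327 and 6264, because the threshold was lifted, and genes higher made up 56.6% instead of 73.4% in the second. Factors passing were then 6 lower and 4 higher in the first, beside 6300 lower and 6046 higher among 18560 genes, 7 lower in the second, beside 1302, and 4 lower and 5 higher in the third, beside 5085 and 5875. DESeq2 size factors and the DESeq2 test each called 1 factor higher in LPS against control, beside 3462 of 18560 and 3606 of 23050 tested genes. LPS mouse 1 was assumed to vary like mice of the other groups when it was the only LPS mouse. The median of the factors was then -0.836 in LPS against control and 0.149 in LPS plus YW3-56 against LPS. Leaving out 1 mouse at a time gave 752 (without LPS plus YW3-56 mouse 2) to 1831 genes (without mouse 5) in LPS plus YW3-56 against control, and 61.2% of them higher without mouse 5. It gave a median of the factors of 0.015 to 0.36 in LPS plus YW3-56 against LPS. Factors called then ranged from 0 to 1 higher in LPS against control, 0 to 3 lower in LPS plus YW3-56 against control, and 1 to 3 lower and 1 to 3 higher in LPS plus YW3-56 against LPS. Where no reason is given, the cause was not tested. Of 480 log2 fold changes of the factors under alternatives, 437 moved by less than the spread between mice, 43 by more, and 0 changed sign while called. No paired analysis was possible because the groups share fewer than 2 mouse numbers. With 2 mice given LPS plus YW3-56, calls against that group rest on 5 residual degrees of freedom.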
